A study of Rattus norvegicus with 6 samples.

Results

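Expression of 10 genes that build or maintain the titin filament, the Z-disc and the M-band of the sarcomere was examined in rat heart primordia before and after the first heartbeat. The genes were Ttn, Tcap, Ldb3, Myoz2, Nebl, Xirp1, Myom1, Mybpc3, Trim63 and Trim54. Of these, 9 were named for their function, though with earlier results of these data known. Trim54 was chosen by its rise in these same arrays, so that its values are given as a description without a test. The 10 genes were looked up by symbol among the probes of the array, and 8 of them were found, with 9 of the 30367 probes. A probe named Tcap or Ldb3 was not found, and Ldb3, which encodes the Z-disc protein ZASP, is not analysed here.

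Global gene expression had been measured in whole heart primordia of Wistar rats (written Wister in the labels) on embryonic day 10. The pre-heartbeat group (n = 3) was defined by a flat central shape of the primordium and the post-heartbeat group (n = 3) by a raised one, with a somite range that ends lower in embryos of the former, so that heartbeat and stage cannot be told apart. The labels name no genotype or treatment for either group, and do not say whether a sample was 1 primordium or a pool. Each sample gave 10 ng of total RNA for 1 array of 1 color, and the arrays lay on 2 slides, the first holding pre-heartbeat 1, post-heartbeat 1 and post-heartbeat 2 and the second holding pre-heartbeat 2, pre-heartbeat 3 and post-heartbeat 3.

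Titin is a giant elastic protein that runs from the Z-disc, where telethonin (Tcap) ties titin ends together, to the M-band, where myomesin crosslinks it with myosin. Nascent myofibrils of embryonic cardiomyocytes are laid down along the cell edge and mature as titin, alpha-actinin and myosin come into register. Muscle RING finger proteins, encoded by Trim63, Trim55 and Trim54, are ubiquitin ligases that bind titin near the M-band or associate with microtubules and sarcomeres during this process.

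Because titin is encoded by a very long transcript, which part of it a probe reads matters for its value. The probe named Ttn lies at chromosome 3, 59404956 to 59405015, on the minus strand of rn4, the build of the array annotation. A further 2 probes, which the array names by Ensembl transcripts, read the same locus 63.4 kb and 99.7 kb away toward the start of the gene. The nearer one shares its RefSeq transcripts with the Ttn probe in the array annotation and the farther one shares its protein entry with the nearer one. These 2 probe sequences are shown because they give the titin transcript further readings, and the Trim54 sequence is shown because its 60 bases span 2188 bases of the genome and so cross an exon junction, which restricts it to spliced RNA. The titin probe at 99.7 kb likewise crosses a junction, with 60 bases over 520, whereas the probe at 63.4 kb spans 59 bases of the genome.

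Titin, 63.4 kb from the Ttn probe (chr3:59468315-59468373, minus strand, rn4): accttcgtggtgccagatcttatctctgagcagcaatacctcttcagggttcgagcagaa
Titin, 99.7 kb from the Ttn probe (chr3:59504696-59505215, minus strand, rn4): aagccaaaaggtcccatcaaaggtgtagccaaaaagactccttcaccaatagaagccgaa
Trim54 (chr6:25219683-25221870, minus strand, rn4): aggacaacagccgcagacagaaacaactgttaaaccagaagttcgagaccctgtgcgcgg

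Signals are given on the log2 scale after the 75th percentile of each of the arrays was subtracted, so that 0 is the signal that 75% of the spots stay under, and they compare arrays for 1 probe but not probes with each other. To be tested, a probe had to stand well above background on every array of 1 group or of both, as 19299 probes did. Of the 9 member probes, 8 stood well above background on all 6 arrays, so that none of them entered the tests through its higher group alone, and the Myoz2 probe did so on 0 arrays.

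Mean signals of the titin, Z-disc, M-band and A-band members that were detected, and of the ligase Trim63, were higher in the post-heartbeat group, by 2 fold or more for Mybpc3 and Trim63. By the brightest probe of each, the 6 tested genes other than Trim54 were higher by 1.47 to 2.23 fold. Their median log2 difference was 0.73 (0.65 with the undetected Myoz2 as the seventh), beside -0.03 over all tested probes. None of these differences passed the threshold of limma for all probes (0 of 6 genes at a Benjamini-Hochberg adjusted p under 0.05, beside 0.119% of tested probes called higher). At an unadjusted limma p under 0.05, 4 of 6 genes were higher, against 3.91% of tested probes. After adjustment the test named in the methods called 0 of all 19299 tested probes, so that its count of 0 members says nothing about them. By the selection of the methods, which asks for at least 1.5 fold and a p under 0.05 before adjustment, 3 of 6 genes were higher (Mybpc3, Myom1 and Trim63), against 1.89% of tested probes, and Myom1 left the selection when any 1 of the 6 arrays was left out. In a limma fit that also held the slide as a block (the slide-block fit), 4 of 6 genes passed the adjusted threshold (Mybpc3, Myom1, Trim63 and Nebl), against 1.16% of tested probes. Because the members were not chosen independently of these data, the shares over all tested probes are only a description beside the counts.

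**Figure D1:**
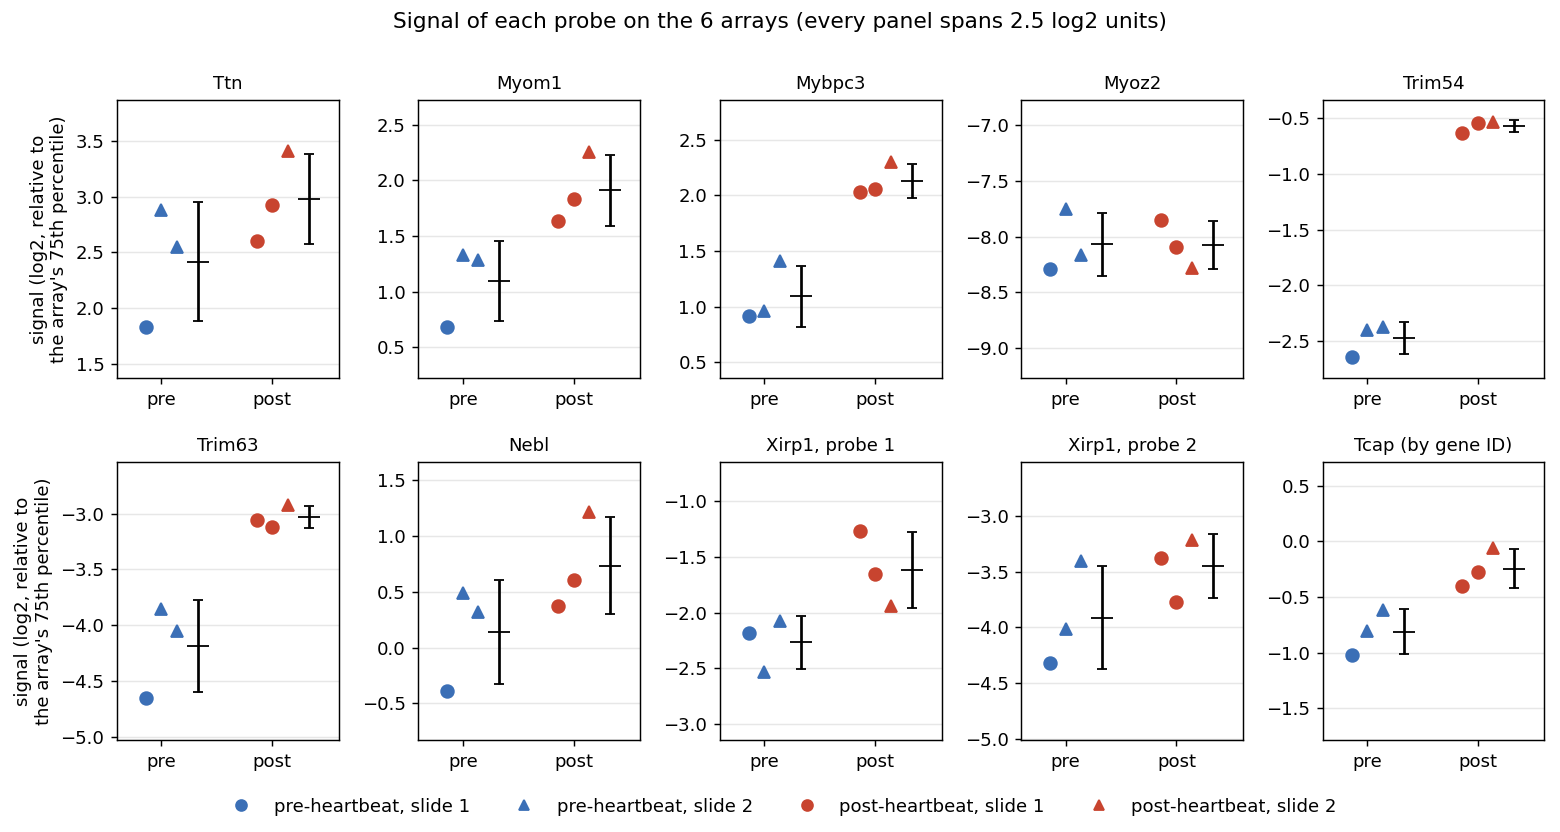
Signal of each probe (y axis, log2 units above the 75th percentile of its array) in the pre-heartbeat and post-heartbeat groups (x axis), with circles for the first slide and triangles for the second, and mean ± SD of 3 arrays in black. Groups are apart for Myom1, Mybpc3, Trim54, Trim63, the first Xirp1 probe and Tcap, whereas they overlap for Ttn, Nebl, the second Xirp1 probe and Myoz2.

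The Ttn probe read 1.83, 2.88 and 2.54 in the pre-heartbeat arrays and 2.60, 2.92 and 3.41 in the post-heartbeat arrays. The groups overlapped, because pre-heartbeat 2 was above post-heartbeat 1. Ttn signals averaged 2.42 ± 0.54 in the pre-heartbeat and 2.98 ± 0.41 in the post-heartbeat group (SD, n = 3 each), which is a log2 difference of 0.56 ± 0.32 (SE) with an adjusted p of 0.866 in limma and an exact permutation p of 0.2 (two-sided). No exact permutation test of 3 arrays against 3 can go below 0.1. Within slides, however, every post-heartbeat array was above every pre-heartbeat array of its slide, by 0.93 on the first slide and 0.70 on the second. In the slide-block fit the Ttn difference was 0.81 ± 0.17 (SE) with an adjusted limma p of 0.0651. The difference of group means fell to 0.27 without pre-heartbeat 1, the lowest array, and to 0.34 without post-heartbeat 3, the highest.

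The titin probe at 63.4 kb read -2.45, -0.61 and -1.09 in the pre-heartbeat arrays and -2.25, -1.62 and -0.24 in the post-heartbeat arrays. The probe at 99.7 kb read -1.42, -0.08 and -0.22 before and -1.71, -1.05 and 0.43 after. On both probes the 3 arrays of the second slide were above the 3 arrays of the first, whatever their group. The second slide was higher than the first by 1.65 at 63.4 kb (adjusted limma p of 0.00319 for the slide term) and by 1.54 at 99.7 kb (adjusted p 0.00439), compared with 0.76 for the Ttn probe (adjusted p 0.0214). Differences between groups were 0.02 ± 0.62 (SE) and -0.20 ± 0.59, with adjusted p of 0.995 and 0.929. In the slide-block fit they were 0.56 ± 0.21 (adjusted p 0.403) and 0.31 ± 0.22 (adjusted p 0.849), and the 95% interval of the latter ran from -0.18 to 0.81. The 3 readings of the titin transcript thus gave intervals that overlap, and whether their differences come from the part of the transcript that was read was not tested.

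**Figure D2:**
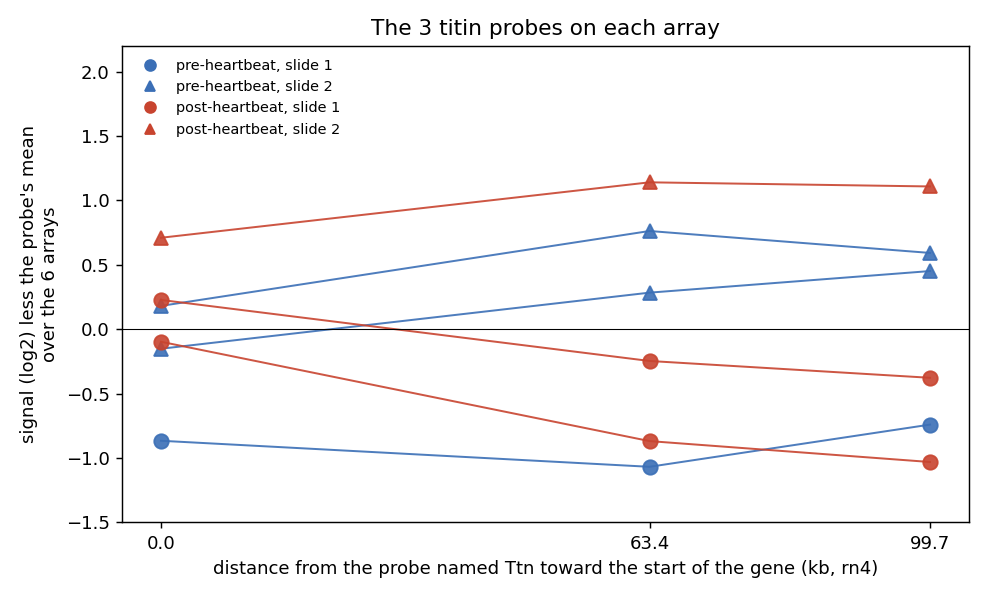
Signal of the 3 titin probes less the mean of each probe over the 6 arrays (y axis, log2) against the distance from the Ttn probe toward the start of the gene (x axis, kb on rn4), 1 line for each array, with circles for the first slide and triangles for the second. At 63.4 and 99.7 kb the triangles are above the circles in both groups, and the gap between slides is 1.65 and 1.54, compared with 0.76 at the Ttn probe.

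Of the proteins that hold titin at the Z-disc, telethonin has a probe that the array names only by the RefSeq gene number of Tcap, and its values were taken in addition to those found by symbol. It read -1.02, -0.80 and -0.61 before and -0.40, -0.28 and -0.06 after heartbeat initiation. The groups did not overlap. The difference was 0.57 ± 0.17 (SE), or 1.48 fold, with an adjusted limma p of 0.386 and an exact permutation p of 0.1 (two-sided), and it was 0.67 ± 0.14 (adjusted p 0.0638) in the slide-block fit. The Tcap probe was called by limma in neither fit. Its fold missed the methods' selection in the fit of the groups alone and met it in the slide-block fit, at 1.59 fold with an unadjusted p of 0.00351.

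Nebl encodes nebulette, a nebulin relative of cardiac muscle that binds actin and alpha-actinin at the Z-disc. Its probe (chromosome 17, 91518952 to 91519011) read -0.39, 0.49 and 0.32 before and 0.38, 0.60 and 1.22 after heartbeat initiation. The overlap was limited to pre-heartbeat 2, which exceeded post-heartbeat 1. The Nebl difference was 0.59 ± 0.30 (SE) with an adjusted limma p of 0.848, and within slides it was 0.88 and 0.81. It fell to 0.33 without pre-heartbeat 1 and to 0.35 without post-heartbeat 3. As the slide difference was 0.76 (adjusted p 0.0121), the slide-block fit had a smaller error and gave 0.85 ± 0.14 (SE) with an adjusted p of 0.0324. Among 13358 tested probes of other genes with a symbol, that of Nebl was the one most like Ttn over the 6 arrays, with a root mean square difference of 0.07 log2 units after each was centered on its mean. It was followed by Ghr, the growth hormone receptor (0.10), and Slc8a1, the sodium-calcium exchanger of cardiomyocytes (0.10). The likeness takes in the difference between slides, which was 0.76 for Ttn and for Nebl. It is a description, as these probes were selected on the arrays shown.

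Xirp1 encodes Xin, an actin-binding repeat protein of adhering junctions in the developing heart, and had 2 probes on chromosome 8. The brighter probe (124996302 to 124996361) read -2.19, -2.53 and -2.08 before and -1.26, -1.65 and -1.94 after heartbeat initiation. These groups did not overlap, though post-heartbeat 3 was close to the highest pre-heartbeat array. The difference was 0.65 ± 0.22 (SE) with an adjusted limma p of 0.505, and 0.55 ± 0.19 (adjusted p 0.339) in the slide-block fit. The dimmer probe (124998054 to 124998113) read -4.32, -4.01 and -3.40 before and -3.37, -3.77 and -3.21 after, with overlapping groups and a difference of 0.46 ± 0.27 (SE, adjusted p 0.866). Both Xirp1 probes thus pointed upward, by 1.57 and 1.38 fold, and neither was called in either fit.

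Myoz2 encodes calsarcin-1, which links alpha-actinin to calcineurin. Its probe (chromosome 2, 219709884 to 219709943) was not well above background on any of the 6 arrays, where it read between -8.29 and -7.75. No fold is given for Myoz2, and its RNA was not detectable with this probe in either group.

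At the M-band and along the thick filament, Myom1 encodes myomesin, which bridges titin and myosin, and Mybpc3 encodes cardiac myosin-binding protein C, which binds both of them in the A-band. The Myom1 probe (chromosome 9, 110340438 to 110340497) read 0.69, 1.33 and 1.28 before and 1.64, 1.83 and 2.26 after heartbeat initiation. All post-heartbeat arrays were above all pre-heartbeat arrays. Myom1 differed by 0.81 ± 0.24 (SE), or 1.75 fold, with an adjusted limma p of 0.390 and an unadjusted p of 0.0426 in the test of the methods. The difference was 1.05 and 0.95 within the slides, and in the slide-block fit it was 1.0 ± 0.13 (SE) with an adjusted p of 0.0179.

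The Mybpc3 probe (chromosome 3, 75495320 to 75495379) was spotted 10 times on the array. It read 0.91, 0.96 and 1.41 before and 2.03, 2.05 and 2.30 after heartbeat initiation. The gap between the groups, from 1.41 to 2.03, was wider than the range within either. Mean signals were 1.09 ± 0.27 and 2.13 ± 0.15 (SD, n = 3 each), a 2.05 fold rise by the methods' selection and a log2 difference of 1.03 ± 0.18 (SE) with an adjusted limma p of 0.116. In the slide-block fit the difference was 1.12 ± 0.16 (SE, adjusted p 0.0196), and it was 1.13 and 1.12 within the slides. The slides differed by 0.27 in Mybpc3 (adjusted p 0.279).

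Among the ligases, Trim63 encodes MuRF1, which binds titin close to its kinase domain and marks thick filament proteins for degradation. Its probe (chromosome 5, 153069319 to 153069378) read -4.65, -3.86 and -4.06 before and -3.05, -3.12 and -2.92 after heartbeat initiation. The post-heartbeat arrays lay close together, with an SD of 0.10 against 0.41 before, and none of them overlapped with the pre-heartbeat arrays. Trim63 was 2.23 fold higher in the post-heartbeat group, a difference of 1.16 ± 0.22 (SE) with an adjusted limma p of 0.147 and an unadjusted p of 0.00911 in the test of the methods. With normexp background correction it was 0.67 (adjusted p 0.384). In the slide-block fit the difference was 1.30 ± 0.16 (SE, adjusted p 0.0151).

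Trim54 encodes MuRF3, which stabilizes microtubules in differentiating muscle and is found at the Z-disc and the M-band. It read -2.64, -2.40 and -2.38 before and -0.63, -0.55 and -0.53 after heartbeat initiation, the rise for which it was chosen. The gap between its groups was far wider than the range within them, and the rise was 3.74 fold, with 2.05 on the first slide and 1.86 on the second on the log2 scale. The tested probes most like Trim54 over the 6 arrays were those of Nppa, which encodes atrial natriuretic peptide (root mean square difference of 0.05 log2 units), Casq1, a calcium-binding protein of the sarcoplasmic reticulum (0.14), and Apobec2, a muscle-enriched member of the APOBEC family (0.14). The values of Trim54 and of these probes are a description, as they were selected on the arrays shown.

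**Figure D3:**
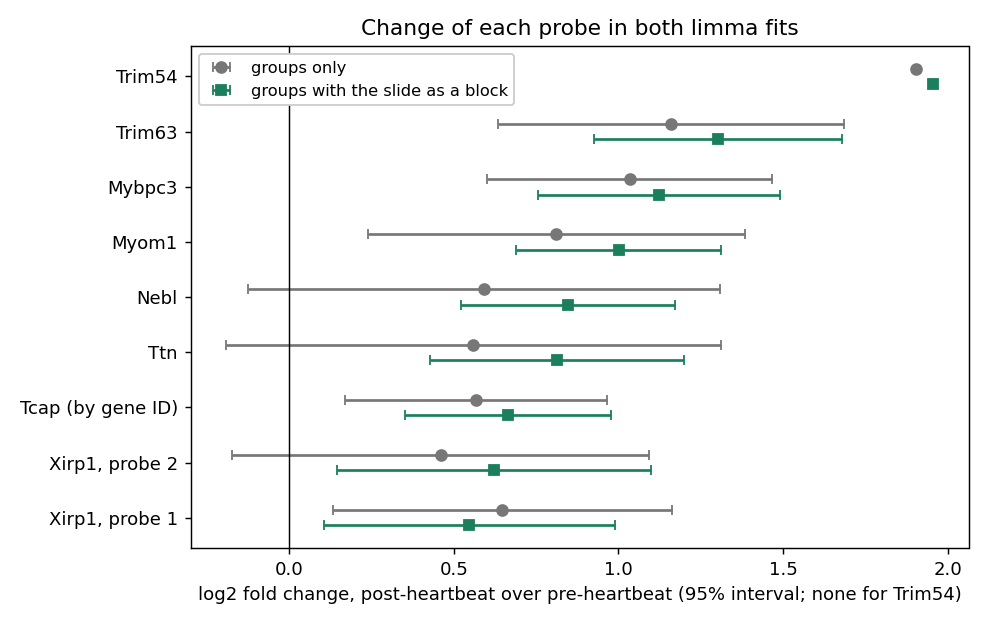
Log2 fold change of the post-heartbeat over the pre-heartbeat group (x axis) for each probe (y axis), from limma with the groups alone (gray circles) and in the slide-block fit (green squares), and bars for the 95% interval, which is left out for Trim54. In the slide-block fit, values other than Trim54 lie between 0.55 for the first Xirp1 probe and 1.30 for Trim63.

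The slide term varied among the tested members, from -0.30 for the brighter Xirp1 probe to 0.76 for Ttn and Nebl. Groups did not overlap for 4 of 6 tested genes (Myom1, Mybpc3, Trim63 and the brighter Xirp1 probe), against 5.38% of all tested probes. Within both slides, each post-heartbeat array was above each pre-heartbeat array for 7 of 7 tested member probes, against 12.2% of all tested probes. The 95% intervals in the slide-block fit ran from 0.92 to 1.68 for Trim63, from 0.75 to 1.49 for Mybpc3, from 0.69 to 1.31 for Myom1, from 0.52 to 1.17 for Nebl and from 0.43 to 1.20 for Ttn. These intervals overlap, and the order of the 5 genes by size of change was not tested.

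Promoters of the members, from 250 bases before to 50 bases after each RefSeq start on GRCr8, were searched on both strands for the MEF2 and CArG motifs, which are named here without their degenerate letters, for the MCAT motif CATTCC, and for AGATAA, a form of the GATA motif. In the members, no matches of different motifs overlapped. Of the members, 9 of 10 had a promoter in the table used, and Tcap had none there. A gene was counted when any of its promoters held a match, whereas the shares beside the counts are over single promoters. Xirp1 had 3 promoters, and its matches lie in promoters 1 and 2, which overlap. A MEF2 match was found in 4 of 9 genes (Ttn, Mybpc3, Myoz2 and Xirp1), compared with 3.29% of 33469 promoters of the same length, and a CArG match in 2 of 9 (Ldb3 and Nebl), compared with 1.64%. CATTCC was found in 3 of 9 (Ttn, Trim54 and Trim63), compared with 14.2% of promoters, and AGATAA in 2 of 9 (Trim54 and Xirp1), compared with 11.6%. In the window of Myom1 these letters were not found, and a match is only a description of the sequence: Myoz2, with a MEF2 match, was not above background on any array.

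The 250 bases before the start are printed for 4 genes that the results turn on, with matches in capitals. Ttn and Mybpc3 each hold a MEF2 match, which begins 166 and 109 bases before the start. Trim63 and Trim54 each hold the reverse complement of CATTCC, at 91 and 186 bases before the start, and Trim54 holds AGATAA in addition. The CATTCC match of Ttn lies after the start and is not in the printed stretch.

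Ttn (chr3:82332111-82332360, minus strand, GRCr8): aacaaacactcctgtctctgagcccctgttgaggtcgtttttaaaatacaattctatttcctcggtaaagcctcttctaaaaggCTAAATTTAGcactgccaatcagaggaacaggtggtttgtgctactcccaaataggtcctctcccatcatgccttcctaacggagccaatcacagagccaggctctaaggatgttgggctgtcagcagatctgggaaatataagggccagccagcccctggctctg
Mybpc3 (chr3:97550811-97551060, plus strand, GRCr8): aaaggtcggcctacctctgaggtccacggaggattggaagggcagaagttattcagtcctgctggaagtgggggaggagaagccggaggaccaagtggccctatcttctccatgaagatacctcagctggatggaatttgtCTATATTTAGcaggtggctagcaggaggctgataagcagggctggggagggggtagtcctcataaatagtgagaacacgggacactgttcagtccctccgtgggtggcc
Trim63 (chr5:151816986-151817235, plus strand, GRCr8): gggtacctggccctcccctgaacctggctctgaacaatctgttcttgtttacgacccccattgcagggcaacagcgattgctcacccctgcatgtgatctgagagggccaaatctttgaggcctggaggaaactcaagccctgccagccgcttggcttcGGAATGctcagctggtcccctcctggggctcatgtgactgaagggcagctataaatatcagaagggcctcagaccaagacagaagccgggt
Trim54 (chr6:30978476-30978725, minus strand, GRCr8): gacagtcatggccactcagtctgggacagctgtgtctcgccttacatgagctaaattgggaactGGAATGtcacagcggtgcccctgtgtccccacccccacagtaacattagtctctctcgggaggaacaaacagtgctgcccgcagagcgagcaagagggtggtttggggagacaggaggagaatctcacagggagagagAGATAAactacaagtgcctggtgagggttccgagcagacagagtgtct

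Of the partners of the members at the Z-disc and I-band, 17 of 20 tested genes had a higher mean after heartbeat initiation. The higher ones include Ankrd23 (0.38), which met the filter only through the post-heartbeat group, with 2 pre-heartbeat arrays well above background. Myoz1 (-0.57) met it only through the pre-heartbeat group, with 2 post-heartbeat arrays well above background. Neither was called in either fit. Of the 29 genes of this list, 26 had a probe and 4 (Myot, Nrap, Neb and Xirp2) were well above background on 0 arrays. In limma 0 of 20 were called (11 at an unadjusted p under 0.05, each of them higher, against 3.91% of tested probes). In the slide-block fit 7 of 20 were called higher, against 1.16% of tested probes, and 0 lower. These were Actn2, the alpha-actinin that crosslinks actin at the Z-disc (0.99 ± 0.16, SE), Csrp3, the muscle LIM protein (0.95 ± 0.16), Des, the intermediate filament protein desmin (1.01 ± 0.17), and Ankrd1, which binds the I-band region of titin (1.0 ± 0.15). The others were Cmya5, which encodes myospryn (1.01 ± 0.15), the actin-binding Palld (1.12 ± 0.16) and Pdlim3, a partner of alpha-actinin (0.72 ± 0.13). Fhl2 (0.63), Flnc, or filamin C (0.82), and the dimmer of 2 Pdlim7 probes (1.01) were higher by the methods' selection without being called in limma, whereas the brighter Pdlim7 probe differed by -0.01. The list median was 0.57, and 0.67 in the slide-block fit, beside -0.03 and -0.02 over all tested probes. Here and in the lists below, a higher mean is any difference above 0, and its share over all tested probes was not counted. The lists, like the members, were chosen with earlier results of these data known, so the shares beside their counts are a description.

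Nebulin and nebulette, and the paralogs of several other members, differed in detection. Nebl was well above background on all 6 arrays while both Neb probes were on 0 of them. Myom1 and Xirp1 were likewise detected on all arrays, and Myom2 and Xirp2 on 0 arrays. Mybpc3 was detected on all arrays and Mybpc1 on 0, but Mybpc2 was on 2 pre-heartbeat and 3 post-heartbeat arrays. For Myoz2 it was the other way, as Myoz1 was detected on 3 pre-heartbeat and 2 post-heartbeat arrays and Myoz2 on 0. Whether the probes of the latter would read their RNA if it were present was not tested.

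Among partners at the M-band and A-band, 14 of 16 genes had a probe and 11 were tested. Mybph is left out of the counts that follow, because it entered the tests through the post-heartbeat group alone, with 0 pre-heartbeat arrays well above background. Mybpc2 also met the filter only through the post-heartbeat group, where it was higher (0.13), with 2 pre-heartbeat arrays well above background. It stays in the count of higher means and in the median, and was not called in either fit. Of the other 10 genes, 10 had a higher mean after heartbeat initiation. Limma called 0 without the slide term (4 at an unadjusted p under 0.05, against 3.91% of tested probes). With the slide term it called 3, against 1.16% of tested probes. The 3 genes were Unc45b, a chaperone of myosin folding (0.98 ± 0.14, SE), Lrrc39, or myomasp, of the M-band (1.22 ± 0.15 and 1.19 ± 0.19 on its 2 probes), and Mybphl, a relative of myosin-binding protein H (1.37 ± 0.18). Mybph itself was not well above background on any pre-heartbeat array and was on all 3 post-heartbeat arrays, where its mean was at least 2.06-fold higher. The methods' selection also held Smyd1, a methyltransferase needed for myofibril assembly (0.59). The median of the 10 genes was 0.44, and 0.53 in the slide-block fit.

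Of 8 genes for thin filament ends 6 had a probe, and 4 of 4 tested genes had a higher mean. In the slide-block fit 3 were called higher, against 1.16% of tested probes. Without the block 0 were called (3 at an unadjusted p under 0.05, against 3.91% of tested probes). Lmod2, the leiomodin that lengthens cardiac thin filaments, read -3.00, -2.67 and -2.89 before and -1.77, -1.34 and -1.19 after heartbeat initiation, with a difference of 1.52 ± 0.17 (SE) in the slide-block fit. Tmod1, which caps the pointed end of actin, differed by 1.07 ± 0.18 and Cap2, an actin-binding protein, by 0.83 ± 0.16 in the same fit. The dimmer of 2 Lmod1 probes was in the methods' selection (0.66), and Lmod3 was well above background on 0 arrays.

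Of 8 further muscle ubiquitin ligases and cofactors 7 had a probe and were tested. A higher mean was found for 5 of 7. Of the 7, limma called 0 without the slide term (3 at an unadjusted p under 0.05, against 3.91% of tested probes). With the slide term it called 4, against 1.16% of tested probes. Asb2, which targets filamins, read 1.38, 0.35 and 1.12 before and 2.89, 3.15 and 2.54 after heartbeat initiation. This was the widest difference among the tested genes of the 5 lists, 1.91 ± 0.30 (SE) in the fit of the groups alone and 1.72 ± 0.22 in the slide-block fit. Fbxl22, an F-box protein of the Z-disc, differed by 1.27 ± 0.14 in the latter fit, Trim55, which encodes MuRF2, by 1.08 ± 0.16, and Fbxo32, or atrogin-1, by 0.85 ± 0.16.

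Regulators of sarcomere genes were tested for 13 of 13 genes and none was called by limma in either fit. Without the block, 2 were higher at an unadjusted p under 0.05, against 3.91% of tested probes. The median of the 13 genes was 0.29, and 12 of 13 had a higher mean. Smarcd3, a cardiac subunit of chromatin remodeling complexes, was the 1 regulator in the methods' selection (0.64 ± 0.17, SE). Of the listed factors for the MEF2, CArG and GATA motifs, Mef2a, Mef2c and Mef2d differed by -0.02, 0.04 and 0.73. Srf, which binds CArG, differed by 0.44, and Gata4 and Gata6 by 0.62 and 0.29. The adjusted limma p was 0.785 or more for each of these factors.

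**Figure D4:**
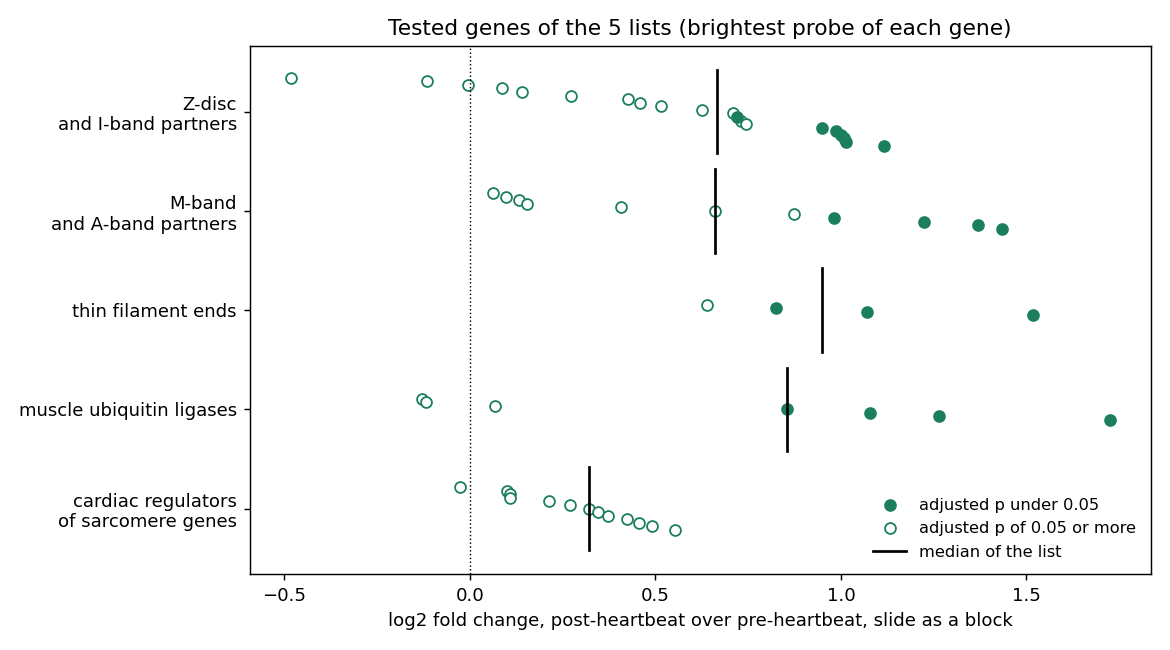
Log2 fold change in the slide-block fit (x axis) of each tested gene in the 5 lists (y axis), filled where the adjusted limma p was under 0.05, with a vertical line at the median of each list. Filled points are 7 Z-disc and I-band, 4 M-band and A-band (with Mybph, which was detected in the post-heartbeat group alone), 3 thin filament and 4 ligase genes, while none of the 13 regulators is filled. Of all tested probes, 1.16% were called higher in that fit.

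Markers of the cell types that whole primordia may hold moved in part with the members. The 6 cardiac muscle markers were well above background on all arrays, and their mean signal was between 5.12 and 5.57 before and between 6.0 and 6.02 after heartbeat initiation. Group means were higher for 6 of 6 genes, but the groups overlapped for Actc1, Tnnt2 and Nkx2-5. Limma called 0 of them with the groups alone and 1, Myh6, in the slide-block fit, against 0.119% and 1.16% of all tested probes called higher. The 5 smooth muscle markers, which early cardiomyocytes also express in part, ranged from -0.47 to -0.29 before and from 0.37 to 0.62 after, with 5 of 5 higher. Of these, limma called 0 with the groups alone and 4 in the slide-block fit, against the same shares, and the groups overlapped for Smtn. Of the 4 neural markers, 3 had a probe, and their mean signal ranged from -1.81 to -0.96 before and from -2.76 to -1.87 after. Otx2 differed by -1.56 and Sox2 by -0.21, the latter with overlapping groups. Otx2 was called lower by limma with the groups alone (adjusted p 0.0199) and in the slide-block fit (adjusted p 0.00566). Over all 19299 tested probes, 4 and 89 were called lower in these fits. No other marker of the lists was called with the groups alone. Pax6, the third, was well above background on only 1 pre-heartbeat array and on 0 post-heartbeat arrays. Mean signals of the skeletal muscle list overlapped between groups. Of its myogenic factors, Myf5 and Myog were well above background on all 6 arrays and differed by 0.38 and -0.02, while Myod1 and Myf6 were on 0 arrays. Of its other genes, Ckm, the muscle creatine kinase, was called higher in the slide-block fit (1.22 ± 0.22, SE, adjusted limma p 0.0430), and Actn3 differed by -0.90 (adjusted p 0.306). Mean signals of the somite, endothelial, erythroid and endoderm lists, of 5 genes each, also overlapped between groups. Single genes of them had groups apart, Kdr (-0.55) and Ttr (-0.58) lower and Tcf15 (0.19) and Pax3 (0.12) higher, and none was called in either fit. Of the erythroid list 3 genes, and of the somite list 1, were well above background on 0 arrays. In bulk tissue, fewer cells of a type and less RNA per cell cannot be told apart, and the part of cell composition in the differences of the members was not tested.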

How the data were processed

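Total RNA of rat heart primordia (3 samples per group) was labeled and hybridized by the authors to 1-color Agilent arrays. The authors deposited the processed intensity of each spot, which Agilent Feature Extraction 10.7.3.1 (per the labels) had background-subtracted, and a table of ratios to a baseline per probe, used here as an alternative. Compared as log2 values, that table and the intensities gave the same differences between arrays to within 0.01 for at least 99.99% of probes, apart from 1 constant per array. The column medians lay between 0.935 and 1.10, and the baseline itself is not known from the table.

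Control spots were removed, log2 intensities were centered on the 75th percentile of each of the arrays (1146 to 1702 intensity units), outlier spots were left out and spots of a probe were averaged. Saturated spots numbered 0. Tested probes were compared with limma 3.58.1 in R 4.3.3 with Benjamini-Hochberg adjustment, which was tested on simulated data. The methods' selection used 1.5 fold and an unadjusted p under 0.05. With 2 groups its Tukey HSD test equals the pooled comparison of means. A gene in a list was represented by its brightest probe. The samples are described as biological replicates, and the number of arrays limits the precision. The slide was read from the scanner files, and in a principal component analysis the slides were apart on PC1 (60.3% of the variance) and the groups on PC2 (16.6%).

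Named genes were the members, list genes called by limma with or without the slide block or in the methods' selection, and the 3 probes most like Ttn and Trim54. The members and lists were chosen with earlier results of these data known. Whether replicate numbers pair the samples could not be told. Deviations of same-numbered arrays correlated with r of 0.65, -0.28 and 0.49, but every pair of arrays on a shared slide correlated positively and every other pair negatively, whatever the number. Alternatives were the replicate or slide block, an intensity trend, normexp with an offset of 50, quantile normalization, the percentile over detected probes, the ratios, other filters, the mean of the probes of a gene, the methods' test with adjustment, a fold of 2 or the limma p in the selection, and leaving out each array. Promoter sequences are those of RefSeq on GRCr8.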

Additional observations from a re-analysis of the deposited data

How the results depend on the processing

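The count of member genes other than Trim54 called by limma, 0 of 6 tested, became 1 (Mybpc3) with the replicate block and 4 with the slide as a block. It stayed at 0 in the other alternatives, among them leaving out any array (0 to 0) and the adjusted test of the methods, which called 0 of all tested probes. The count in the methods' selection, 3, became 5 with the slide as a block, where Ttn and Nebl joined, and was between 2 and 3 without 1 array. Mybpc3 and Trim63 remained in it without any array, and Myom1 left it without any one of the 6. Xirp1 entered it without post-heartbeat replicate 3, with quantile normalization and with the limma p (4 genes each in the latter cases), and 2 genes, Mybpc3 and Trim63, met 2 fold. The median log2 difference of the members with a probe other than Trim54, 0.65 with the undetected Myoz2, was between 0.59 and 0.85. It moved by less than the spread between arrays in each alternative. The count of list genes called by limma, 0 of 55 tested, became 6 with the replicate block, 18 with the slide as a block, 2 with an intensity trend, 2 with normexp correction and 4 with the mean of the probes of a gene, where fewer features were tested. With the slide as a block, 1.16% of all tested probes were called higher. Shares over all probes in the other alternatives are not given here, so whether calls rose in general there cannot be read from the member or list counts. The mean of the probes also changed the values themselves, and the cause of none of these moves was tested. As the replicate numbers followed the slides in part (1 and 3 shared a slide), the replicate block gives no paired analysis. Counting the Tcap probe with the members, chosen after seeing the data, left both counts as they were in the fit of the groups alone. No tested member changed sign in any alternative. The limits are 3 arrays per group and 1 probe for most members.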
